A study of Mus musculus with 26 samples.

Results

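The 3 arrays labelled as secondary Group3 tumors were compared with the 3 arrays of primary Group3 tumors that carry the same title code, dka. These 6 arrays are all the secondary tumors and all the dka tumors among the 26 arrays of the series. Group3 medulloblastoma is a malignant tumor of the cerebellum, and the mice model it with neural cells of a genotype labelled Trp53-/-, Cdkn2c-/- Myc. On these arrays the brightest probe set of Mycn was near the top of the scale in the tumors, and Myc was lower. Secondary and primary tumors share the genotype Trp53-/-, Cdkn2c-/- Myc and the strain C57BL/6, so neither is a genotype control for the other. The comparison asks how tumors of 1 genotype differ between these 2 labels. How the secondary tumors arose, whether they were transplanted, recurrent or spread, is not given in the sources used here, nor are ages, host animals, tumor site or treatment. Cultured neurospheres of the same code show where a tumor level lies. They are 3 arrays of Group3 neurospheres with the tumors' genotype and 3 arrays of Trp53 Cdkn2c neurospheres, whose label does not have Myc (called P7 in the series text). An untreated pair of primary tumors with the title code mmm is quoted beside some genes, though its arrays were deposited on a wider range of values.

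All values are log2 intensities of an Affymetrix mouse array, as deposited, so that a difference of 1 is 2-fold. A gene is read by 1 probe set, the brightest on average over the 12 dka arrays. Differences are secondary minus primary, SE is limma's moderated standard error, and a gene is called where limma's Benjamini-Hochberg adjusted p over all 17097 genes is at most 0.05. No label ties the arrays to separate animals, and p-values therefore cover just the spread between arrays, which may be technical. The samples are bulk tumor, in which fewer cells of a type and less RNA per cell cannot be told apart.

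Tumors of MYC family genes keep proliferative and biosynthetic programs high while the neuronal program of granule cells, the most numerous neurons of the cerebellum, stays incomplete. A tumor sample also holds glia, vessels, meninges and immune cells of the host brain, and their genes enter a bulk measurement. Homeobox and POU transcription factors, growth factor receptors and synaptic genes mark the regional and neuronal character of such cells.

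The arrays were not equally alike. Secondary tumors 2 and 3 had a Pearson r of 0.9923 over all probe sets and an SD of their differences of 0.292, the closest of the 15 pairs. Secondary tumor 1 had an r of 0.9602 and 0.9598 with them. Their r with primary tumor 1 was 0.9737 for secondary tumor 2 and 0.975 for secondary tumor 3. With primary tumors 2 and 3 it was 0.9685 and 0.9617 for secondary tumor 2, and 0.9696 and 0.9662 for secondary tumor 3. Secondary tumors 2 and 3 thus lay nearer to every primary tumor than to secondary tumor 1. Primary tumors had r between 0.9687 and 0.9708 with each other. Whether secondary tumors 2 and 3 share an animal or an extract was not tested, and counts are therefore also given with their mean as 1 sample.

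The 250 bases upstream of the annotated start are shown for Rlf, Dlx1, Pou3f3 and Irx2, the called transcription regulators with the largest differences. The arrays read transcripts, not these upstream bases. They are RefSeq sequence in build GRCm38.p6, written 5′ to 3′ on the gene's strand. Capitals mark the E-box CACGTG that MYC and MAX bind, the GC box, which reads GGGCGG, the CCAAT box and the TATA box, which reads TATAAA. Each was searched on both strands, and in Rlf an inverted CCAAT box overlaps a GC box.
Rlf, chr4:121215085-121215334, minus strand: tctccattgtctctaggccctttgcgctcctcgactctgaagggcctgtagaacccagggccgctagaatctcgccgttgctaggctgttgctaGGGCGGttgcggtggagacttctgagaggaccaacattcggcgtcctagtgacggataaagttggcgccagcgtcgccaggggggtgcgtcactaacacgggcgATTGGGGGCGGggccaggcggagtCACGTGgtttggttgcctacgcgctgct
Dlx1, chr2:71529195-71529444, plus strand: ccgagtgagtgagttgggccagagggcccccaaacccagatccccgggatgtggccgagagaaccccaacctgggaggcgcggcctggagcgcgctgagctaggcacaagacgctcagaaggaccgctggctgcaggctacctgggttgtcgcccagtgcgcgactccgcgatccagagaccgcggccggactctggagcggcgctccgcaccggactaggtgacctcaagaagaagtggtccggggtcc
Pou3f3, chr1:42695518-42695767, plus strand: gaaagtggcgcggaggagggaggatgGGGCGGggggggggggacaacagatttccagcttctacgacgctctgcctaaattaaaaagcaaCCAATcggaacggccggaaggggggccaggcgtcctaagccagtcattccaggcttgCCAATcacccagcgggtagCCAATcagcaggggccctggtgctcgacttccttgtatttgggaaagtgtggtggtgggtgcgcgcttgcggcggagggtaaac
Irx2, chr13:72628570-72628819, plus strand: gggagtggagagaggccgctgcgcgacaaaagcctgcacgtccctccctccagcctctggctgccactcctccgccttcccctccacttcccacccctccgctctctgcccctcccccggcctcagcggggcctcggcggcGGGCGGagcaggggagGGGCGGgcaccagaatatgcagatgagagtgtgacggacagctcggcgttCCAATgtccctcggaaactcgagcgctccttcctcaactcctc

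The Rlf window held 1 E-box, 2 GC boxes and 1 CCAAT box. The Dlx1 window held none of these motifs. Pou3f3 had 3 CCAAT boxes and 1 GC box, and Irx2 had 1 CCAAT box and 2 GC boxes. Of the 16 higher genes, 15 had an entry, with 16 promoters in all, and 15 of these promoters (93.8%) held a GC box. The share was 58.3% of 36 promoters for the lower genes and 48.2% of the 17065 promoters of genes tested. Median GC content was 66.6% for the higher genes, 59.8% for the lower genes and 57.6% for all genes tested. The E-box was present in 6.25% of promoters of the higher genes, 5.56% of those of the lower genes and 7.38% of those tested. A match is a description of the letters, not of binding.

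Of the 17097 genes, 56 were called (0.328%). They were 16 genes that rose in secondary tumors (0.0936%) and 40 that fell (0.234%). At an unadjusted p under 0.05, 12.7% of genes differed, with 4.76% higher and 7.92% lower. All 56 had 3 secondary arrays on one side of the 3 primary arrays, against 7.81% of all genes entirely higher and 10.5% entirely lower. A call requires a difference large against a spread that includes these same arrays. Separate arrays and large folds therefore come with a call and are no added support for it. At least a 2-fold difference was seen in 11 of the rises and 32 of the falls. Over all genes 0.719% were at least 2-fold higher and 3.8% at least 2-fold lower, and the median difference was -0.05. The secondary level was above all 9 other dka arrays, neurospheres included, in 14 of the 16 rises, and below all 9 in 23 of the 40 falls. The 3 primary arrays are among these 9, and all 56 genes were already apart from them. The same shares over all genes were not counted, so these counts have no background beside them. In 13 of the falls the secondary mean was below the arrays' median of 4.68, where such values flatten, so those differences may be understated. The fit also holds the neurosphere arrays, so each gene's SE and adjusted p rest partly on the spread among cultures. With only the 6 tumor arrays in the fit, 1 gene was called, Dlx1 (limma adjusted p = 0.0135). That fit also had fewer arrays, and the cause of the drop was not tested. The number called depended on single arrays as well. It was 9 with secondary tumors 2 and 3 averaged, 9 without secondary tumor 2, 11 without secondary tumor 3, 154 without primary tumor 1 and 19 without primary tumor 3. All 56 genes had the same sign in each of these settings.

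**Figure D1:**
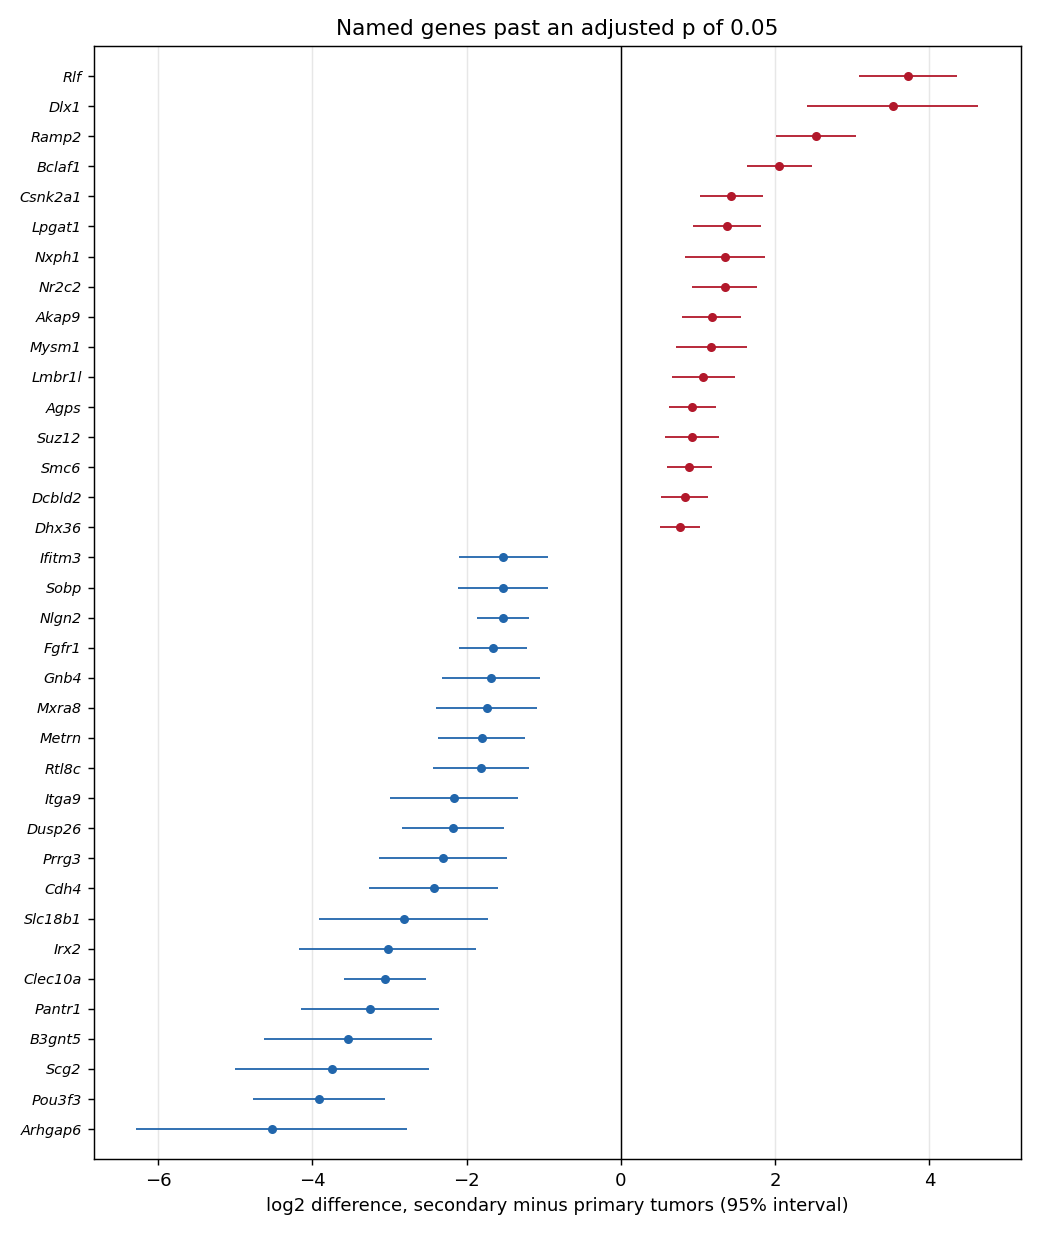
Log2 difference, secondary minus primary tumors (3 arrays each), for the 16 genes that rose and the 20 that fell most among named genes. The 95% interval is from limma's fit of the 12 dka arrays, so its spread includes the neurospheres. Differences run between 3.72 for Rlf and -4.52 for Arhgap6.

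Regulators of transcription were among the largest rises. Rlf encodes a zinc finger protein, known in humans as a fusion partner of MYCL, that acts on gene regulation in the mouse. It had 8.58, 7.62 and 7.64 in secondary tumors, against 3.87, 4.71 and 4.09 in primary tumors. The primary level was close to that of Group3 neurospheres (4.36), and Trp53 Cdkn2c neurospheres had 5.90. The difference was 3.72 (SE 0.29, 13.2-fold, limma adjusted p = 0.00083). The primary means of Rlf and of the next gene, Dlx1, were 4.22 and 3.68, below the arrays' median, so both folds may be understated and their order is not settled.

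Dlx1, a homeobox factor of forebrain interneuron precursors, had 7.41, 6.86 and 7.32 in secondary tumors and 3.61, 3.76 and 3.65 in primary tumors. All primary arrays were thus near the bottom of the scale and all secondary arrays well above it. Its difference was 3.52 (SE 0.50, limma adjusted p = 0.029). A high Dlx1 was not limited to secondary tumors, as the mmm primary tumors had 7.06 and 7.23 and 1 Group3 neurosphere array reached 6.19. Dlx2, which the annotation places beside Dlx1 on chromosome 2 with only Dlx1as between them, had 5.70, 5.35 and 6.49 in secondary tumors and 4.81, 4.27 and 4.51 in primary tumors. The arrays of Dlx2 did not overlap, but its difference of 1.32 (SE 0.27) missed the threshold (adjusted p = 0.078). Of the 6 Dlx genes measured, Dlx1 was the 1 called.

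Bclaf1, a nuclear protein of transcription and splicing, rose to 9.80, 9.56 and 9.27 in secondary tumors, against 7.26, 7.67 and 7.55 in primary tumors. The difference was 2.05 (SE 0.19, limma adjusted p = 0.0022), and a second, dimmer probe set gave 1.89 without passing. Nr2c2, an orphan nuclear receptor, rose by 1.35 (SE 0.19), with 7.65, 7.16 and 7.28 in secondary tumors and 6.29, 6.17 and 5.59 in primary tumors. Suz12, a core subunit of the Polycomb complex that methylates histone H3, had 10.40, 10.40 and 10.47 in secondary tumors and 9.48, 9.47 and 9.55 in primary tumors. This was a difference of 0.92 (SE 0.16, limma adjusted p = 0.048). All 6 of its probe sets were higher, and 5 passed when all probe sets were fitted. Suz12 was the 1 called of 24 measured chromatin regulators, against 0.328% of all genes. The list went both ways, with 5 higher and 4 lower at an unadjusted p under 0.05 (37.5%, against 12.7% of all genes) and a median difference of 0.01. Mysm1, a histone H2A deubiquitinase, was higher by 1.17 (SE 0.21). Smc6, of the SMC5/6 complex that guards chromosome structure, was higher by 0.89 (SE 0.13). Dhx36, a helicase that unwinds G-quadruplexes, was higher by 0.77 (SE 0.12).

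**Figure D2:**
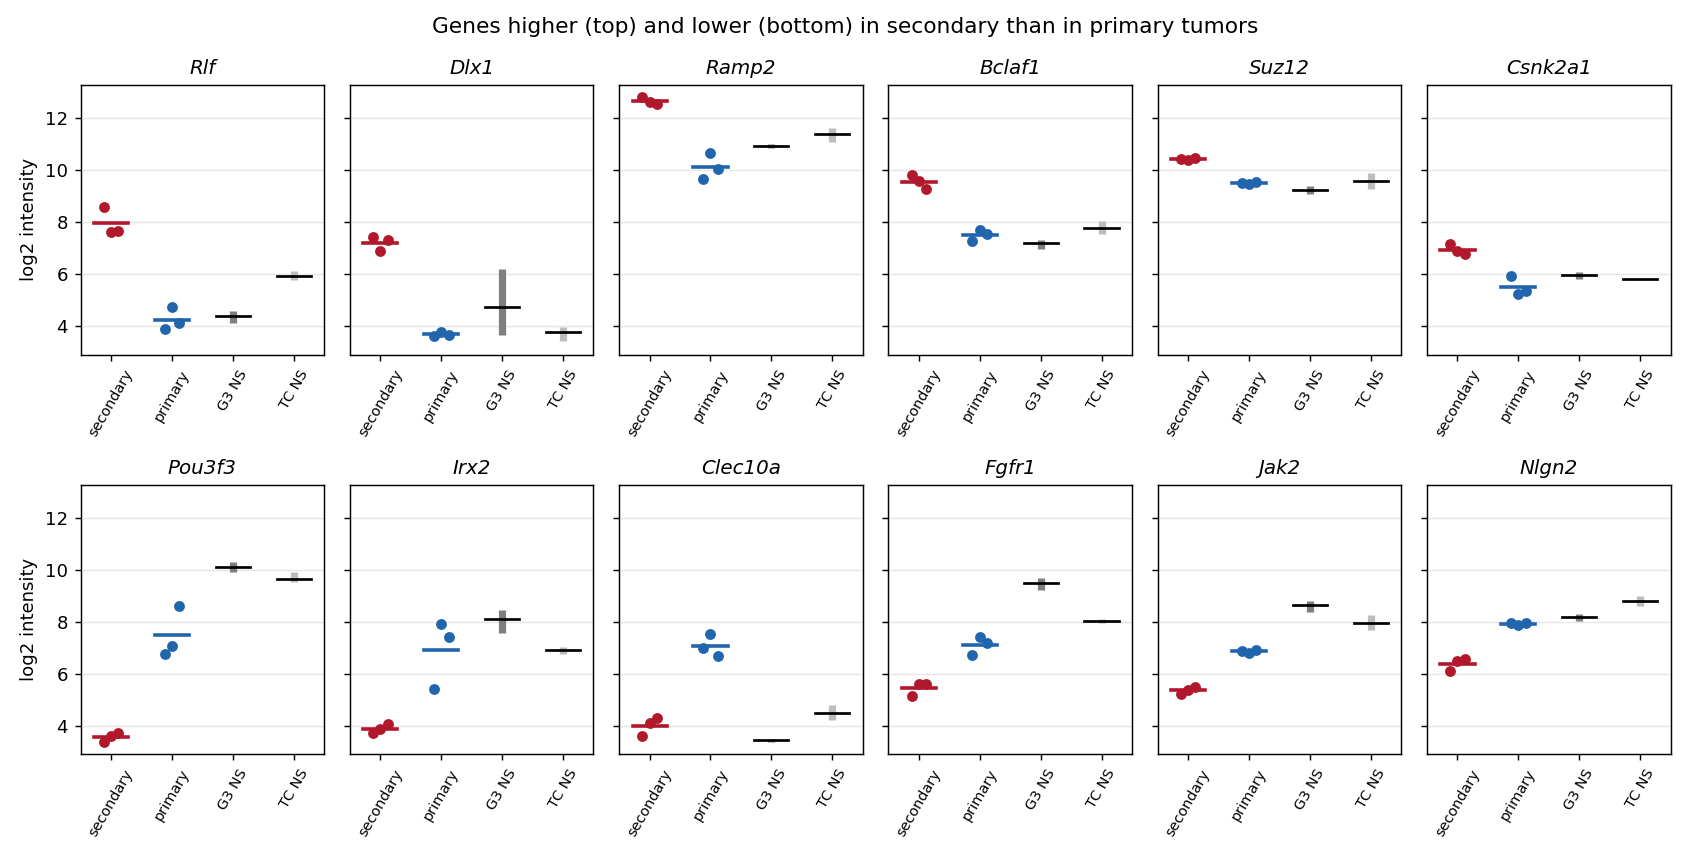
Log2 intensity of 12 genes in secondary tumors (red) and primary tumors (blue), with 1 point per array and a line at the mean, and in Group3 neurospheres (G3 NS) and Trp53 Cdkn2c neurospheres (TC NS), with a grey bar for the range of 3 arrays and a black line for the mean. In every panel the red and blue points are apart, and Pou3f3, Fgfr1, Jak2 and Nlgn2 are higher still in both kinds of neurosphere.

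Among receptors and signalling proteins, Ramp2 rose most. RAMP2 pairs with the receptor encoded by Calcrl to form a receptor for adrenomedullin. Ramp2 had 12.80, 12.63 and 12.54 in secondary tumors and 9.64, 10.67 and 10.05 in primary tumors, a difference of 2.53 (SE 0.23, 5.79-fold, limma adjusted p = 0.0022). Its probe sets disagreed, with 2.53 and 2.86 for the bright pair and -0.40, not passing, for a dimmer one. Calcrl had 4.31, 4.62 and 4.22 in secondary tumors and 3.51, 3.66 and 4.99 in primary tumors, so its partner receptor overlapped between the groups (difference 0.33, adjusted p = 0.88). Csnk2a1, a catalytic subunit of casein kinase 2, had 7.13, 6.86 and 6.76 in secondary tumors and 5.92, 5.21 and 5.33 in primary tumors. It rose by 1.43 (SE 0.18, limma adjusted p = 0.018). Akap9, a scaffold that holds protein kinase A at the centrosome and Golgi, rose by 1.18 (SE 0.17).

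The remaining rises were in membrane and lipid genes and a synaptic ligand. Lpgat1, a lysophospholipid acyltransferase, had 9.69, 9.93 and 9.998 in secondary tumors and 8.17, 8.47 and 8.86 in primary tumors (difference 1.37, SE 0.20). Of its 5 probe sets, 2 were called and 1 was in the other direction without passing. Agps, an enzyme of ether lipid synthesis in peroxisomes, rose by 0.93 (SE 0.14). Its second probe set, at 7.43 in secondary tumors and 7.47 in primary tumors, gave -0.04. Nxph1, a secreted ligand of neurexins, had 5.58, 6.13 and 6.48 in secondary tumors and 4.62, 5.09 and 4.41 in primary tumors (difference 1.35, SE 0.23, limma adjusted p = 0.049). The mmm primary tumors had 6.91 and 6.35, at or above most secondary tumors. Dcbld2 and Lmbr1l, which encode membrane proteins, rose by 0.83 and 1.07. A second Dcbld2 probe set gave -0.39 without passing.

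Pou3f3, a POU-domain factor of developing neurons, had 3.37, 3.58 and 3.71 in secondary tumors, against 6.75, 7.04 and 8.61 in primary tumors. It stood at 10.09 in Group3 neurospheres and 9.66 in Trp53 Cdkn2c neurospheres, so secondary tumors were the only dka group at the bottom of the scale. The difference was -3.91 (SE 0.39, limma adjusted p = 0.0032), though its dimmer second probe set, near 4 in both tumor groups, gave 0.10. Pantr1, a long noncoding RNA that the annotation places next to Pou3f3 on chromosome 1 with 1 gene between, moved the same way. It had 3.84, 4.13 and 3.88 in secondary tumors and 6.32, 7.04 and 8.24 in primary tumors (difference -3.25, SE 0.41, limma adjusted p = 0.016). In both genes primary tumor 3 was the highest of the 6 tumors. Of the 4 Pou3f genes measured, Pou3f3 was the 1 called, and the other 3 differed by -0.43 to 0.12.

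Irx2, an Iroquois homeobox factor, had 3.70, 3.88 and 4.05 in secondary tumors and 5.39, 7.90 and 7.42 in primary tumors (difference -3.02, SE 0.52, limma adjusted p = 0.048). Primary tumor 1 was lower than the other primary tumors but still above every secondary tumor. The mmm primary tumors had 5.39 and 3.68, so 1 of them was as low as secondary tumors. The other 5 Irx genes differed by -0.33 to 0.28, with adjusted p-values of at least 0.81. Sobp, a nuclear protein gene, fell by 1.52 on the log2 scale (SE 0.26).

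Scg2, which encodes the neuropeptide precursor secretogranin II, had 3.07, 3.94 and 3.86 in secondary tumors and 6.36, 7.30 and 8.43 in primary tumors (difference -3.74, SE 0.57, limma adjusted p = 0.034). Group3 neurospheres were as low as secondary tumors, at 3.96. Nlgn2, the neuroligin of inhibitory synapses, had 6.11, 6.47 and 6.56 in secondary tumors and 7.93, 7.85 and 7.94 in primary tumors. Primary tumors thus lay within 0.1 of each other, and the difference of -1.53 (SE 0.15) had a limma adjusted p of 0.0034. The dimmer probe set of Nlgn2 gave -0.12 without passing. Slc18b1, a vesicular polyamine transporter, was lower by 7.03-fold, with 3.60, 3.37 and 4.0 in secondary tumors and 5.27, 6.93 and 7.21 in primary tumors. Rab3a, a GTPase of synaptic vesicles, and Kif5a, a neuronal kinesin, were picked out after their values were seen. Their differences were -1.24 (SE 0.19) and -1.29 (SE 0.22).

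Adhesion and matrix genes that fell were Cdh4, Itga9 and Mxra8. Cdh4, or R-cadherin, had 5.76, 5.89 and 5.69 in secondary tumors and 7.14, 8.68 and 8.79 in primary tumors (difference -2.42, SE 0.38, limma adjusted p = 0.034), and both of its probe sets were called over all probe sets. Cdh2, which encodes N-cadherin, overlapped between the groups at a difference of 0.30. Itga9, an integrin alpha subunit, fell by 2.16 on the log2 scale (SE 0.37), with 4.22, 4.69 and 4.85 in secondary tumors and 6.84, 7.33 and 6.07 in primary tumors. Its dimmer probe sets gave 0.06 and -0.27. Mxra8, a membrane protein of matrix remodelling, fell by 1.74 (SE 0.30). Metrn, a secreted factor of glial differentiation, had 6.06, 5.46 and 5.52 in secondary tumors and 6.95, 7.68 and 7.81 in primary tumors (difference -1.80, SE 0.25). Its second probe set, near the bottom of the scale in both groups, gave -0.02.

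Growth factor and cytokine signalling genes were also among the falls. Fgfr1, a receptor of fibroblast growth factors, had 5.14, 5.58 and 5.61 in secondary tumors and 6.73, 7.40 and 7.18 in primary tumors. Group3 neurospheres had 9.47 and Trp53 Cdkn2c neurospheres 8.01, so the tumors were below both cultures and secondary tumors the lowest. The difference was -1.66 (SE 0.20, 3.16-fold, limma adjusted p = 0.012). Its 2 dimmer probe sets, below 5 in both groups, gave -0.43 and -0.14. Jak2, the tyrosine kinase of cytokine receptors, and Stat5b, one of the factors it activates, were singled out after their values were seen. Jak2 had 5.21, 5.37 and 5.47 in secondary tumors and 6.86, 6.80 and 6.90 in primary tumors (difference -1.50, SE 0.17, limma adjusted p = 0.0079). Stat5b had 5.13, 4.5 and 4.53 in secondary tumors and 5.85, 6.17 and 5.98 in primary tumors (difference -1.28, SE 0.21, limma adjusted p = 0.042), and the mmm primary tumors, at 4.98 and 4.06, were as low as secondary tumors. Stat3 differed by -0.83 (adjusted p = 0.35) and Stat5a by -0.36 (adjusted p = 0.38), with non-overlapping arrays in both, and neither was called. Gnb4, a G protein beta subunit, fell by 1.68 on the log2 scale (SE 0.29), and Dusp26, a protein phosphatase, by 2.18 (SE 0.30).

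Arhgap6, a GTPase-activating protein, had the largest fall. It had 3.88, 3.83 and 3.75 in secondary tumors and 5.90, 9.95 and 9.17 in primary tumors, a difference of -4.52 (SE 0.79, limma adjusted p = 0.0499). The primary tumors were far apart, and Trp53 Cdkn2c neurospheres were as low as secondary tumors (3.54). B3gnt5, an enzyme of lacto-series glycolipid synthesis, had 3.13, 3.24 and 3.67 in secondary tumors and 5.81, 7.39 and 7.47 in primary tumors (difference -3.54, SE 0.49). Prrg3, a membrane protein with a Gla domain, fell by 2.31 (SE 0.38), and Rtl8c, a gene derived from a retrotransposon, had a difference of -1.82 (SE 0.28).

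Clec10a, a lectin of macrophages and dendritic cells, had 3.61, 4.11 and 4.27 in secondary tumors and 7.0, 7.51 and 6.67 in primary tumors. Its difference of -3.06 (SE 0.24) had the lowest limma adjusted p of any fall, 0.00083. Both kinds of neurosphere were low (3.45 and 4.47), and so were the mmm primary tumors, at 4.30 and 4.01. General macrophage markers did not share its direction. Of 21 measured microglia and macrophage markers, 19 had a difference above 0, against 43.1% of all genes, with a median of 0.49. None was called, and 3 were higher at an unadjusted p under 0.05, against 4.76% of all genes. The markers' mean level was 5.85, 7.11 and 6.37 in secondary tumors and 6.14, 5.84 and 5.93 in primary tumors. Secondary tumor 2 was thus the highest, secondary tumor 1 lay among the primary tumors, and the median was 0.19 without secondary tumor 2. C1qa, a complement gene of microglia, had 7.37, 8.99 and 8.32 in secondary tumors and 7.91, 7.26 and 6.72 in primary tumors (difference 0.93, adjusted p = 0.39).

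The genes of the genotype were read in every tumor. Mycn had 13.65, 13.31 and 13.22 in secondary tumors and 13.60, 13.22 and 13.40 in primary tumors, so both groups were near the top of the scale. The difference was -0.02 (95% interval -0.42 to 0.39), and differences this high on the scale may be compressed. Mycn averaged 12.68 in Group3 neurospheres and 4.59 in Trp53 Cdkn2c neurospheres, so it followed the Group3 label. Its dimmer probe sets averaged 5.43 and 4.02 in secondary tumors and 5.15 and 4.01 in primary tumors. The high level of Mycn thus rested on its brightest probe set. Myc had 9.48, 8.55 and 8.64 in secondary tumors and 8.33, 6.93 and 9.07 in primary tumors. The groups overlapped, with a difference of 0.78 (SE 0.49, limma adjusted p = 0.55). Myc averaged 7.99 in Group3 neurospheres and 8.43 in Trp53 Cdkn2c neurospheres, and thus did not follow the Myc of the labels. Cdkn2c was between 3.91 and 4.03 in secondary tumors and between 3.47 and 3.76 in primary tumors, at the bottom of the scale in both. Whether these probe sets lie in the introduced or deleted sequence was not tested. Of 28 measured MYC target and ribosome biogenesis genes none was called, and their median difference was -0.01, against -0.05 for all genes and 0.17 without secondary tumor 1. Entirely higher were 5 of the 28, against 7.81% of all genes. The 22 ribosomal protein genes had a median of -0.01 with none called, and the 24 oxidative phosphorylation genes had a median of -0.02 with none called.

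Of 29 mitosis genes, 27 had a difference above 0, against 43.1% of all genes, and 16 were entirely higher, against 7.81%. None was called, and 7 were higher at an unadjusted p under 0.05, against 4.76% of all genes. The list's median difference was 0.37. The list mean was 9.60, 9.63 and 9.66 in secondary tumors and 9.26, 9.16 and 9.39 in primary tumors, so it did not overlap. Anln, a cytokinesis scaffold, had 9.74, 9.87 and 9.93 in secondary tumors and 9.14, 9.04 and 9.11 in primary tumors (difference 0.75, adjusted p = 0.11). Kif23, a kinesin of the central spindle, overlapped by 1 array (difference 0.91, adjusted p = 0.17). DNA replication genes had a median of 0.10 over 41 genes, with 6 entirely higher and none called. That median was 0.01 without secondary tumor 2 and 0.27 without secondary tumor 1.

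Cell cycle regulators of the G1 phase included large differences that missed the threshold. Cdk6, which encodes a kinase that drives entry into S phase, had 5.89, 3.89 and 5.31 in secondary tumors and 7.87, 7.79 and 8.83 in primary tumors. The difference of -3.13 (SE 0.57) had a limma adjusted p of 0.055. In the fit of all probe sets, 2 of its 3 probe sets passed, at -3.12 and -3.13. Cdk4, a kinase of the same step, differed by -0.18 (adjusted p = 0.70). Cdkn2a, which encodes the inhibitors p16 and p19 Arf, had 9.15, 9.78 and 8.94 in secondary tumors and 7.29, 4.25 and 7.82 in primary tumors. Primary tumor 2 was far below the other primary tumors, and the difference of 2.84 (SE 0.93) was not called (adjusted p = 0.23). Its neighbour in function Cdkn2b, an inhibitor of the same kinases, differed by -0.60 (adjusted p = 0.71).

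**Figure D3:**
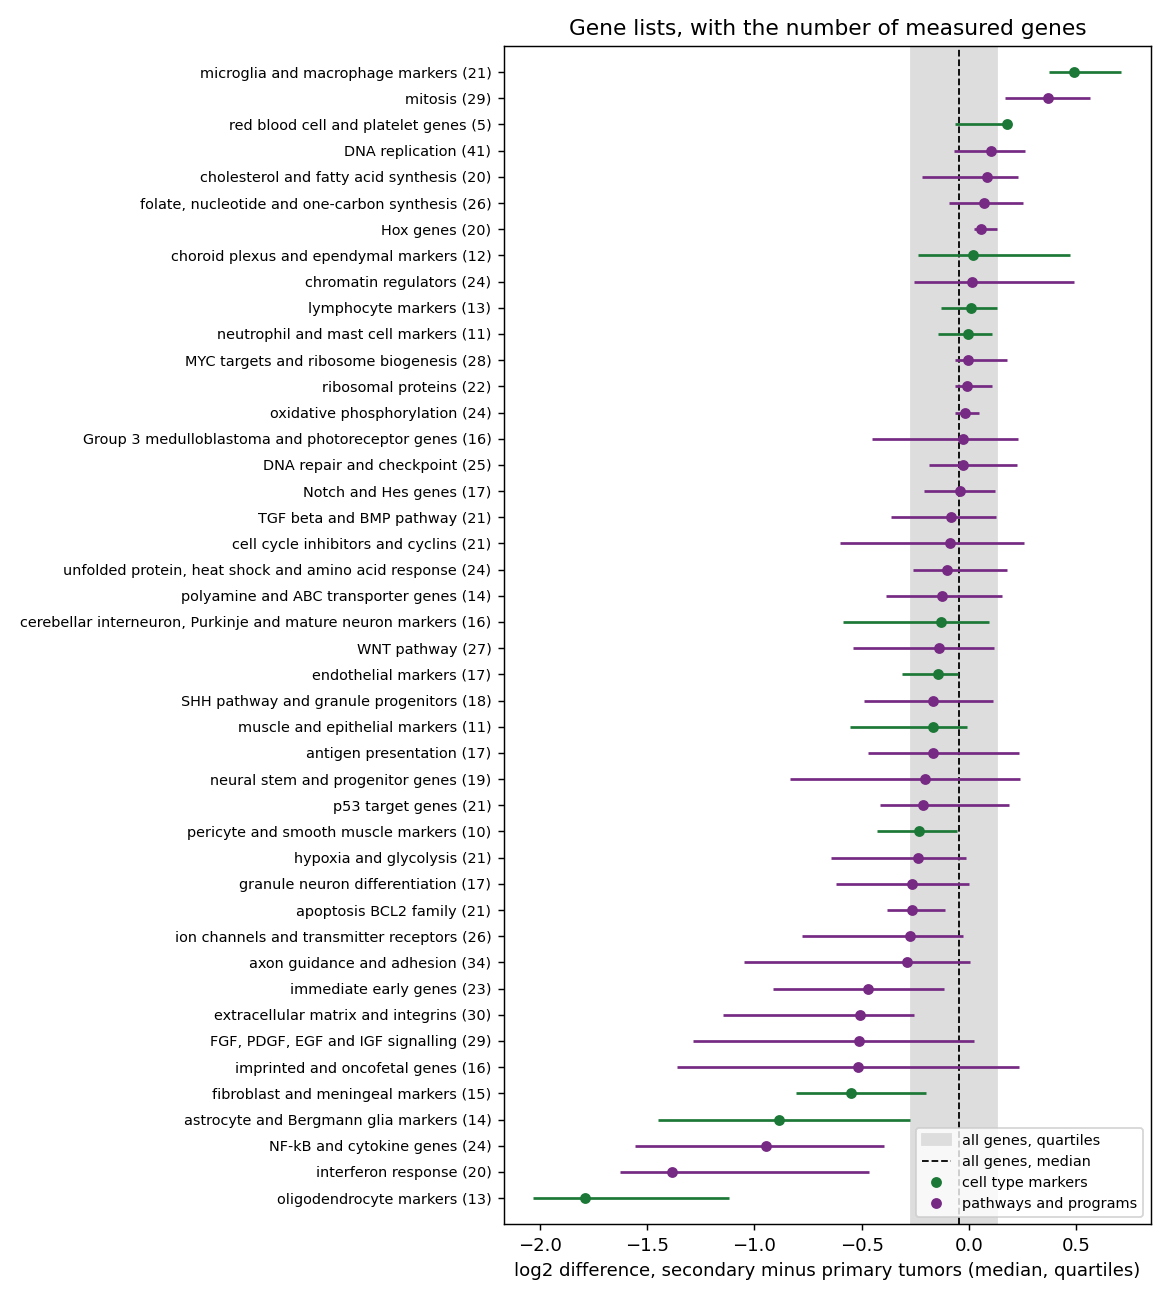
Median log2 difference, secondary minus primary tumors, over the measured genes of each list (point) with the quartiles over genes (line). The grey band and dashed line give the quartiles and median of all 17097 genes, and the oligodendrocyte, interferon, NF-kB and astrocyte lists lie lowest.

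Of 17 granule neuron differentiation genes, 7 were entirely lower, against 10.5% of all genes, and 5 were lower at an unadjusted p under 0.05, against 7.92%. The median was -0.26 with none called. Cntn2, an adhesion protein of granule cell axons, had 4.40, 4.62 and 4.84 in secondary tumors and 5.76, 6.91 and 6.15 in primary tumors (difference -1.65, adjusted p = 0.055). Sema6a, a guidance protein of migrating granule cells, had 5.05, 5.03 and 6.37 in secondary tumors and 7.31, 7.36 and 7.76 in primary tumors (difference -1.99, adjusted p = 0.058). Both genes had non-overlapping arrays. In the list of SHH signalling and granule progenitors, Gli3, a transcription factor of the SHH pathway, had 4.15, 4.21 and 4.35 in secondary tumors and 5.35, 6.58 and 5.33 in primary tumors (difference -1.51, adjusted p = 0.12). Pax6, of granule progenitors, overlapped (difference -1.72, adjusted p = 0.32). Sox2, a stem cell factor, differed by -1.76 and Otx2, a transcription factor of Group 3 medulloblastoma, by -1.81, and the arrays of each overlapped. Gabra5, a GABA receptor subunit of the same subgroup, had 3.40, 3.72 and 3.68 in secondary tumors and 6.94, 3.65 and 6.28 in primary tumors, with primary tumor 2 as low as secondary tumors.

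All 20 measured interferon response genes had a difference below 0, with a median of -1.38. Of them 9 were entirely lower, against 10.5% of all genes, and 11 were lower at an unadjusted p under 0.05, against 7.92%. Ifitm3, a membrane protein that blocks virus entry, was the 1 called of the 20, against 0.328% of all genes. It had 8.09, 8.43 and 8.33 in secondary tumors and 9.69, 9.43 and 10.29 in primary tumors (difference -1.52, SE 0.26, limma adjusted p = 0.048). Its relatives Ifitm1 and Ifitm2 differed by -1.27 and -1.05 and overlapped. The list mean was 4.48, 4.77 and 4.76 in secondary tumors and 5.55, 6.83 and 5.27 in primary tumors. Primary tumor 2 had the highest level among primary tumors for 19 of the 20 genes, and without it the median was -0.70. Cxcl10, an interferon-induced chemokine chosen after its values were seen, had 3.64, 5.85 and 5.0 in secondary tumors and 6.36, 8.92 and 8.08 in primary tumors (difference -2.96, adjusted p = 0.079). Rsad2, an antiviral enzyme chosen in the same way, had 4.64, 5.41 and 5.75 in secondary tumors and 6.52, 9.84 and 6.34 in primary tumors (difference -2.3, adjusted p = 0.27). Ifit3, another interferon-induced gene chosen likewise, had 4.12, 3.75 and 4.51 in secondary tumors and 6.86, 7.07 and 4.90 in primary tumors (difference -2.15, adjusted p = 0.11).

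NF-kB and cytokine genes had a median of -0.95, with 21 of 24 below 0 and none called. Entirely lower were 3 of the 24, a share close to the 10.5% of all genes. Their mean was 4.74, 5.86 and 5.45 in secondary tumors and 5.15, 6.77 and 6.94 in primary tumors, so primary tumor 1 lay among secondary tumors. The median was -0.57 without secondary tumor 1. Il6, a cytokine, had 3.60, 3.83 and 4.51 in secondary tumors and 3.09, 6.91 and 8.45 in primary tumors, and Ccl7, a chemokine, had 3.57, 3.86 and 4.19 in secondary tumors and 3.73, 6.76 and 7.24 in primary tumors. Immediate early genes had a median of -0.47, which was -0.05 without primary tumor 3 and -0.91 without primary tumor 1. Junb, one of them, had 5.87, 6.47 and 6.15 in secondary tumors and 6.70, 7.58 and 8.84 in primary tumors (difference -1.54, adjusted p = 0.25).

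**Figure D4:**
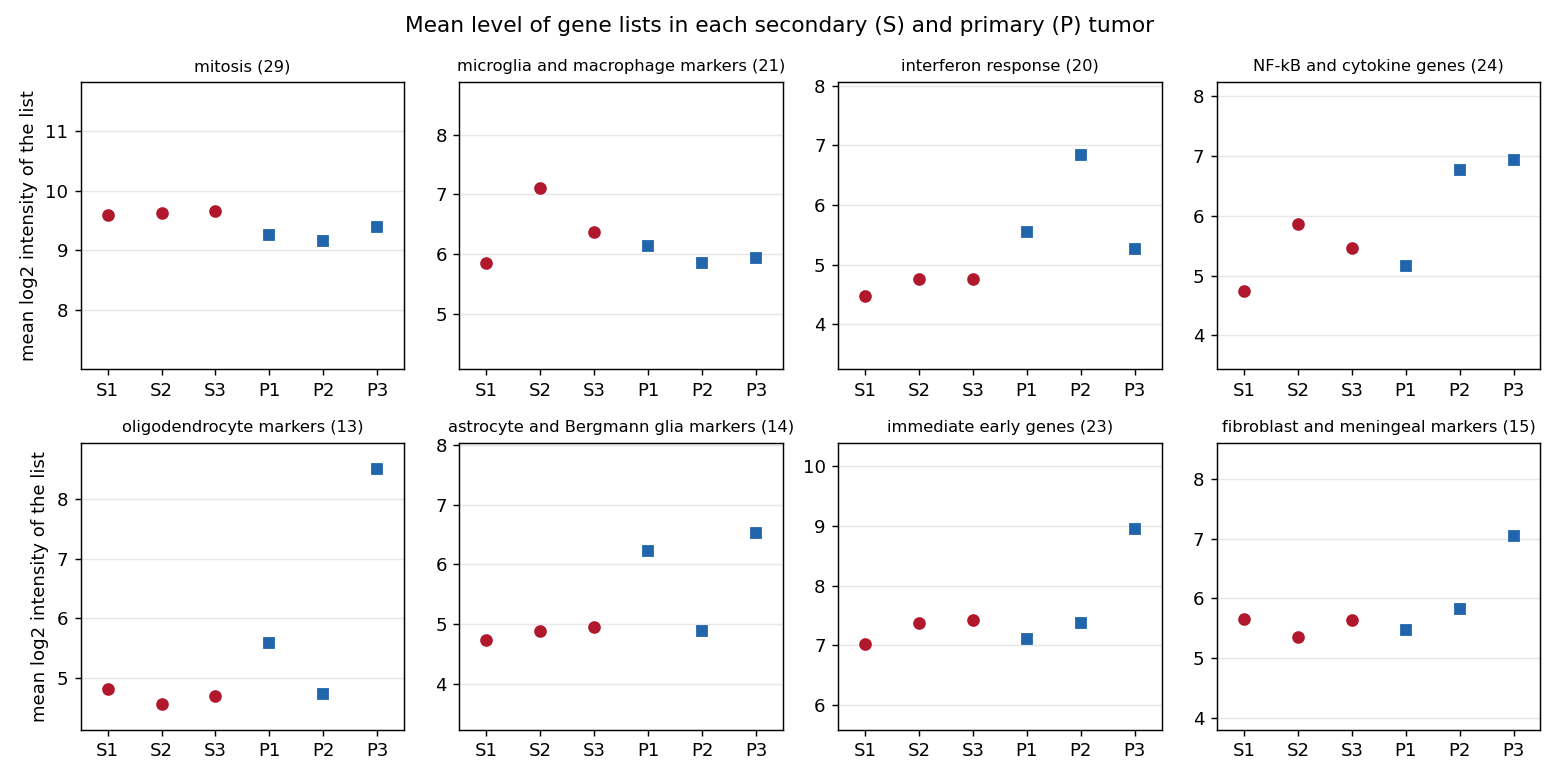
Mean log2 intensity of 8 gene lists (number of measured genes in brackets) in secondary tumors 1 to 3 (S1 to S3, red circles) and primary tumors 1 to 3 (P1 to P3, blue squares), each panel spanning the same number of log2 units. Oligodendrocyte, immediate early and fibroblast levels are highest in P3, interferon levels in P2, and astrocyte levels in P1 and P3.

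All 13 oligodendrocyte markers had a difference below 0, with a median of -1.79, while 43.1% of all genes were above 0. None was called, and 4 were lower at an unadjusted p under 0.05, against 7.92% of all genes. The markers' mean was 4.82, 4.57 and 4.7 in secondary tumors and 5.59, 4.73 and 8.50 in primary tumors. Primary tumor 3 had the highest level of all 13, and without it the median was -0.33. Mbp, a myelin protein, had 6.56, 5.49 and 6.39 in secondary tumors and 8.48, 6.20 and 11.58 in primary tumors. Olig1, a transcription factor of the lineage, had 4.7, 4.62 and 4.57 in secondary tumors and 5.98, 5.44 and 10.37 in primary tumors. All 14 astrocyte and Bergmann glia markers were also below 0, with a median of -0.88 (-0.48 without primary tumor 3). Gfap, an astrocyte filament protein, had 3.47, 3.63 and 3.89 in secondary tumors and 7.40, 3.58 and 7.16 in primary tumors, and Aqp4, the astrocyte water channel, had 3.25, 4.56 and 4.95 in secondary tumors and 8.83, 3.32 and 8.82 in primary tumors. Both were thus as low in primary tumor 2 as in secondary tumors.

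Fibroblast and meningeal markers had a median of -0.55 over 15 genes, which was 0.09 without primary tumor 3 and -0.88 without primary tumor 2. Dcn, a matrix proteoglycan, had 4.36, 4.79 and 5.21 in secondary tumors and 5.04, 6.02 and 8.43 in primary tumors. Igf2, a growth factor, had 8.26, 8.12 and 7.97 in secondary tumors and 8.55, 10.91 and 10.36 in primary tumors. Extracellular matrix and integrin genes had a median of -0.51 over 30 genes, and -0.16 without primary tumor 3. Vcan, a matrix proteoglycan of that list, had 3.97, 5.95 and 6.17 in secondary tumors and 7.17, 6.36 and 8.44 in primary tumors. In the list of FGF, PDGF, EGF and IGF signalling, Fgfr1 was the 1 of 29 called, against 0.328% of all genes. That list had a median of -0.51 and of -0.24 without primary tumor 3. Endothelial markers were at 5.53 to 5.71 in secondary tumors and 5.37 to 6.59 in primary tumors, and lymphocyte markers were near the bottom of the scale in all 6 (3.79 to 4.15). The part of glial and stromal RNA in the called falls was not tested.

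In the imprinted list Meg3, a noncoding RNA, had 8.47, 5.71 and 5.56 in secondary tumors and 8.42, 9.66 and 8.38 in primary tumors. Secondary tumor 1 was therefore at the primary level while secondary tumors 2 and 3 were low. Peg3, a zinc finger gene, had 7.21, 6.66 and 7.19 in secondary tumors and 8.01, 9.57 and 9.65 in primary tumors (difference -2.05, adjusted p = 0.33). The list had a median of -0.52 over 16 genes with none called, and of -0.28 without secondary tumor 3. Hypoxia and glycolysis genes had a list mean of 8.38, 9.28 and 9.23 in secondary tumors and 8.61, 10.11 and 8.97 in primary tumors. Primary tumor 2 was the highest primary tumor for 20 of these 21 genes, and their median of -0.24 was 0.16 without it. The remaining 26 lists had medians between -0.29 and 0.18. In all, limma called no gene in 41 of the 44 lists, which hold 796 measured genes. At an unadjusted p under 0.05, 33 of these were higher and 79 lower, or 14.1%, against 12.7% of all genes.

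The balance of directions depended on which probe sets were read. A fit of all 45037 probe sets without controls, chosen after the data were seen, called 599 higher (1.33%) and 175 lower (0.389%), so 77.4% of its calls were higher. Among the probe sets used for the genes above it called 65 higher and 111 lower. Among the 11801 other probe sets of named genes it called 277 higher and 29 lower, and among 15588 that the annotation table does not name it called 248 higher and 34 lower. Over the same classes the median difference was -0.05, 0.03 and 0.02. The higher calls outnumbered the lower with each of the 6 tumor arrays left out in turn (330 to 569 higher, 62 to 357 lower) and with secondary tumors 2 and 3 averaged (331 higher, 59 lower).

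**Figure D5:**
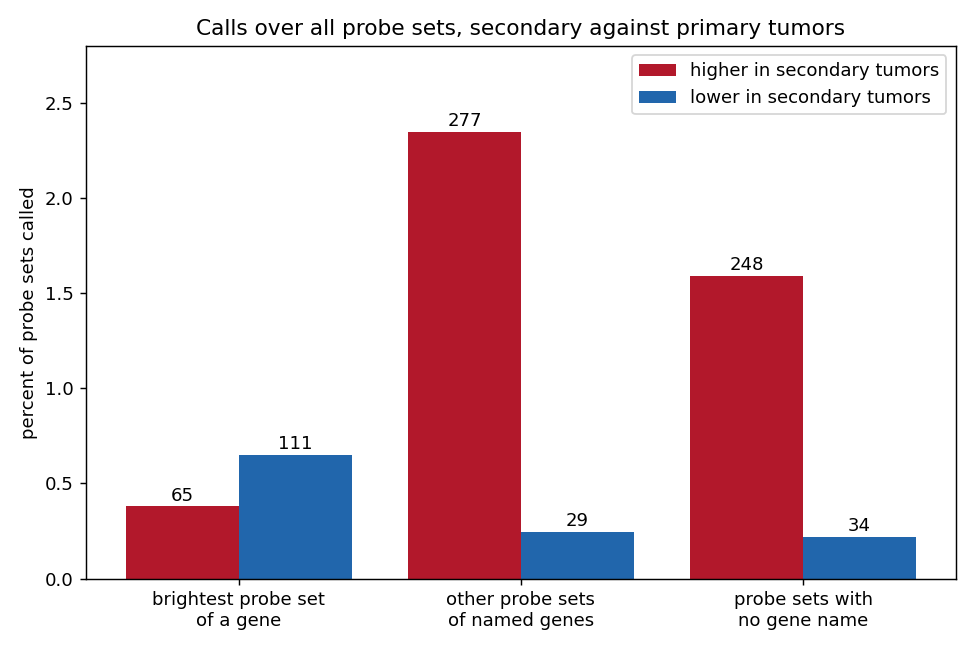
Share of probe sets called higher (red) and lower (blue) in secondary tumors, by class of probe set, with the number called above each bar. Lower calls are the more frequent only for the brightest probe sets of a gene.

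Probe sets of 1 gene did not always share a direction. Of 34 called genes with several probe sets, 47 of the 55 other probe sets had the same direction, 12 of them passing. The rest had the other direction, and 0 of those passed. Over all 11801 other probe sets of named genes, 2.35% were called higher and 0.246% lower. A pass in the other direction would therefore be rare in any case, and its absence does not show agreement. Of the 7180 genes with several probe sets, at least 2 were called higher for 31 genes and lower for 12. No gene had calls both ways, which with so few probe sets called is likewise no sign of agreement. Genes of chromosomes and mitosis stood among the 31, beside others such as Ddx6, Golga1 and Wnk1, and are named here after their values were seen. Knl1, a kinetochore scaffold, had both of its probe sets called, at 1.13 and 4.12, but was not called among genes (limma adjusted p = 0.066). Aspm, a spindle pole protein, had 2 of 3 called, at 2.41 and 2.91, while its brightest probe set gave 0.50 (adjusted p = 0.29 among genes). Smc2, a condensin subunit, had 3 of 4 called between 0.92 and 2.24, and its brightest gave 0.38 without passing. Rif1, a replication timing factor, had 2 of 4 called at 0.73 and 2.0, and its brightest gave 0.50 (limma adjusted p = 0.14 among genes). Ttc28, a gene with tetratricopeptide repeats, had all 3 probe sets called lower, between -1.42 and -1.01. Among genes it was not called (limma adjusted p = 0.079).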

How the data were processed

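Total RNA was extracted with Trizol and amplified and biotin-labelled with NuGEN kits, per the labels' protocols, and read on 1-colour HT MG-430 PM arrays. The deposited log2 values came from RMA and Partek 6.6, per the submitters' processing notes, and were used without further normalization. RMA smooths low intensities, so that low values carry little contrast. Per the file headers, 1 column holds 1 sample. Of 45141 probe sets, 104 were controls and 28898 had 1 gene symbol in the platform annotation; 7180 genes had several, giving 17097 genes.

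The fit used the 12 dka arrays in 4 groups of 3 with limma 3.58.1 (lmFit, eBayes) in R 4.3.3, leaving 8 residual degrees of freedom. Mmm arrays were left out because their values run from -0.41 to 16.1, against 2.56 to 13.9 for dka arrays. Numbers of replicates follow deposit order. Groups of 3 arrays limit the precision, with a median SE over genes of 0.21. No set test was run. The fit was tested on simulated data.

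Genes were named by rule: Myc, Mycn and Cdkn2c; the 20 largest rises and falls past 0.05 with non-overlapping arrays, without predicted genes; up to 4 called members of each of 44 lists, or the 2 largest where none passed; and members of the same families. Others are marked in the text. The members and lists were chosen with earlier results of these data known. Alternatives were other sets of arrays, normalizations, probe set rules and variance models, a filter on dim genes, a 2-fold minimum and each tumor left out. Trp53 and a few other genes were not analysed here. Figures used Python 3.11.15 and matplotlib 3.10.9.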

Additional observations from a re-analysis of the deposited data

How the results depend on the processing

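The 56 calls (16 higher, 40 lower) became 96 with all 26 arrays (47 higher, 49 lower, 26 shared), 1 with the 6 tumor arrays alone, 53 after quantile normalization, 50 after centring, 65 without dim genes, 47 with an intensity trend and robust variances, and 43 at a 2-fold minimum. They were 138 with the mean of probe sets (60.1% higher) and 347 with the most variable probe set (67.1% higher), against 28.6% higher as reported. Leaving out 1 tumor gave 9 to 154 calls, the lowest without secondary tumor 2 and the highest without primary tumor 1. Averaging secondary tumors 2 and 3, chosen after seeing the data, left 9. The causes of these shifts were not tested, and the 6-array fit also had fewer arrays. Every called gene present in a setting kept its sign. Rlf, Ramp2, Pou3f3, Clec10a and Fgfr1 passed in 14 of 15 settings, Nlgn2 in 13, and Mysm1 in 3. Mycn, at -0.02 as reported, was 0.0242 after quantile normalization, 0.026 after centring, 0.0924 with the mean of probe sets, 0.0481 with secondary tumors 2 and 3 averaged, and between -0.144 and 0.0814 with 1 tumor left out. No detection call comes with these values, so signal over background limits the falls that end below the array median. No paired analysis was possible because no label ties a secondary tumor to a primary tumor.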
